A study of Mus musculus with 4 samples.

Results

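The 10 genes described here encode enzymes of mitochondrial fatty acid oxidation: Cpt1a, Cpt1b, Cpt2, Acadm, Acadl, Acadvl, Hadha, Hadhb, Acaa2 and Ech1. They were chosen by name, by a rule that uses no value from the lists, though with earlier results of these data known. They are 10 of 21728 protein-coding genes of the GENCODE M21 annotation of mm10. Open chromatin was measured by ATAC-Seq, in which the Tn5 transposase inserts adapters into accessible DNA, in nuclei of hearts from male C57BL/6 mice aged 8 to 12 weeks that carried both the NuTRAP and the Cdh5-Cre transgenes. Cdh5-Cre is active in endothelium and switches on the GFP tag of NuTRAP, so GFP+ nuclei came from cells of endothelial descent. GFP- nuclei were all other heart nuclei, a mixture of cardiomyocytes, fibroblasts, mural cells and blood-derived cells, sorted from animals of the same genotype. Sorting also required diploid DNA content by DAPI. There were 2 libraries per population, made from 100 to 50000 nuclei each, and for each population the authors called 1 list of peaks from both libraries together. The lists therefore carry no values per replicate, no difference given below has a replicate check, and no p-value is given. The labels were checked against marker genes at their transcription start sites (TSS). Of 7 fibroblast markers, 6 carried a peak at the TSS in GFP- nuclei and 0 did in GFP+ nuclei. Endothelial markers had one at 4 of 8 genes in GFP- and 6 of 8 in GFP+. By the peak ranks explained below, 5 endothelial markers were higher in GFP+. The endothelial marker Tek went the other way, at 81.1 in GFP- and 54.1 in GFP+. Neither list held a TSS peak for Pecam1 or Erg. All 8 cardiomyocyte markers had a TSS peak in both lists, with ranks from 82.7 in GFP- and from 79.6 in GFP+ upward. Mural markers had one at 4 of 5 genes in GFP- and 2 of 5 in GFP+, and macrophage markers at 1 of 4 in both, and the part of these other cell types in the results below was not tested.

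Long-chain fatty acids are the main fuel of the adult heart. They enter the mitochondrial matrix as carnitine esters, and the acyl chain is then shortened in repeated rounds of dehydrogenation, hydration, a further dehydrogenation and thiolysis, each round releasing acetyl-CoA. Cardiomyocytes are known for a high capacity for this pathway, and endothelial cells also carry it out, with Cpt1a as the form of carnitine palmitoyltransferase best studied there. A peak at the start of a gene shows that the promoter is accessible and does not measure how much RNA or enzyme is made.

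The sequences just upstream of 4 starts are shown because they hold the ends of the range of the results below: Cpt1a and Cpt1b as alternative forms of the same enzyme, Cpt2 as the start whose peak differed most between the lists, and Acadm as one of those that differed least. Each is 5′ to 3′ along the gene and ends 1 base before the TSS (mm10, sequence of GRCm38.p6). The positions are chr19:3322084-3322333 on the plus strand for Cpt1a, and on the minus strand chr15:89425864-89426113 for Cpt1b, chr4:107923611-107923860 for Cpt2 and chr3:153944633-153944882 for Acadm. Capitals mark the short words searched for, which are explained with their counts further on.
Cpt1a: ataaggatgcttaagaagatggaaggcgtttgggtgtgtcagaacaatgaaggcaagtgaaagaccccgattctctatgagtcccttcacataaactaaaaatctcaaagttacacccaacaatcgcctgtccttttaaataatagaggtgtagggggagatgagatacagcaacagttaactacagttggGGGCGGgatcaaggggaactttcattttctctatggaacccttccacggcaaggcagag
Cpt1b: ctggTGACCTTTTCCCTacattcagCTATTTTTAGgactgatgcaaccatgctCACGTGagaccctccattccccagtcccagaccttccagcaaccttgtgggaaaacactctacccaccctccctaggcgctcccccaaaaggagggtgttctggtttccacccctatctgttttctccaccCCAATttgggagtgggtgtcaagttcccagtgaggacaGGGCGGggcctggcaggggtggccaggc
Cpt2: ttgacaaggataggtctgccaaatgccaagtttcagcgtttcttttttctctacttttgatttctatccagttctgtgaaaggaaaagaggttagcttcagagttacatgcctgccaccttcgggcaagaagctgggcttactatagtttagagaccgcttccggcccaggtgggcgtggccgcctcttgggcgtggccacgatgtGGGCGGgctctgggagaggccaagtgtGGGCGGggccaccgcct
Acadm: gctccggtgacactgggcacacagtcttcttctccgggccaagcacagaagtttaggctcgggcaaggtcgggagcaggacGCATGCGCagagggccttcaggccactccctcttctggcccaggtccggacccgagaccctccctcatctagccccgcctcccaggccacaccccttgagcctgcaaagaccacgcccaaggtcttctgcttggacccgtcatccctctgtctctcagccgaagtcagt
The starts of Hadha and Hadhb, which encode the subunits of a single enzyme, lie head to head 86 bp apart, and the 85 bases between them are at chr5:30155163-30155247, printed on the plus strand from the Hadha side to the Hadhb side.
Hadha to Hadhb: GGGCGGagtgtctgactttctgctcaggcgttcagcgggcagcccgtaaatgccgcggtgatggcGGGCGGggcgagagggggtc

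Every one of the 10 genes had a peak within 250 bp of its TSS in both lists. The same held for 53.8% of all protein-coding genes. Each peak was ranked by its area, the caller's signal summed over the length of the peak, as a percentile within its own list, so that 100 is the largest of 78912 GFP- or 65008 GFP+ peaks. The 10 starts held ranks of 88.7 to 99.1 in GFP- (median 97.0) and 86.8 to 99.2 in GFP+ (median 94.5). All 10 ranked over 80 in both lists, a limit chosen after the values were seen and passed by 40.0% of all protein-coding genes. None of the 10 differed between the lists by more than 20 points of rank, against 7.72% of genes lower and 2.11% higher in GFP+ over the 12577 genes with a TSS peak in either list. A start with a GFP- rank over 80 cannot rank higher in GFP+ by that much. Of the 8287 genes with peaks in both and a GFP- rank of at least 85, 110 were lower and 0 higher by this limit, so such calls are rare at strong starts in general. The 10 differences, GFP+ rank less GFP- rank, had a median of -0.41 points, compared with -0.83 points over all genes and -0.61 points over genes that had peaks in both and a GFP- rank of at least 85. In such mixed populations, a site open in fewer nuclei and a site less open in each nucleus cannot be told apart. The rank was lower in GFP+ for 8 genes and higher for 2, compared with 71.6% of all these genes lower, and with lists cut to an equal 50000 peaks it was lower for 4 and higher for 6. In the full lists the difference lay within 1 point for 6 genes and within 3 points for 9, with Hadha and Hadhb, which share a peak, counted separately. The matching shares over all genes were not computed. Ranks are compressed near the top of a list, so small differences there are not particular to these genes.

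**Figure D1:**
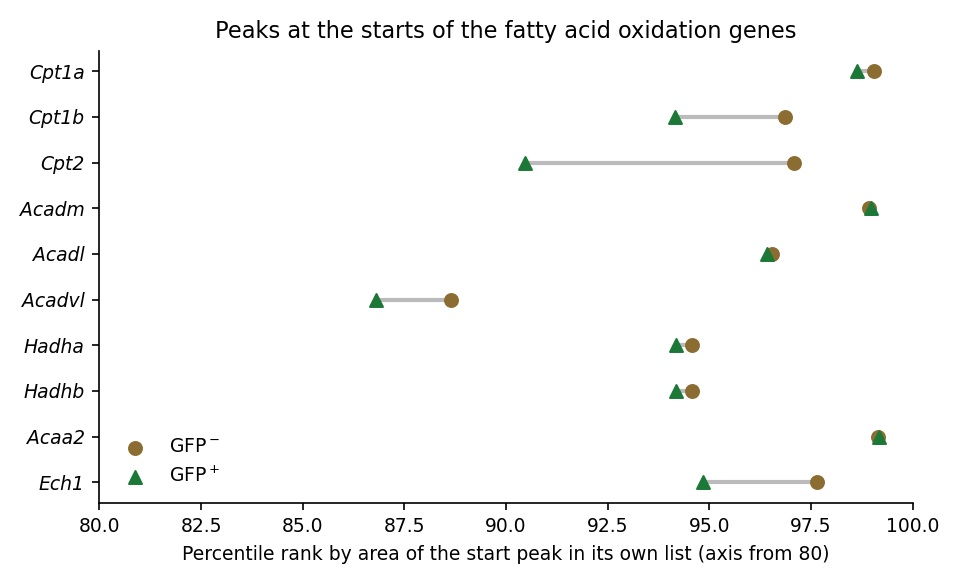
Percentile rank by area of the TSS peak of each gene in the GFP- list (circles) and the GFP+ list (triangles), joined by a line, on an axis that runs from 80 to 100. The symbols nearly coincide for Acadm, Acadl and Acaa2, and lie farthest apart for Cpt2, at 97.1 in GFP- and 90.5 in GFP+.

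Carnitine palmitoyltransferase 1 couples long-chain acyl groups to carnitine on the outer mitochondrial membrane and is the step at which entry into oxidation is controlled. Cpt1a, known as the liver form, had its TSS at position 3322334 of chromosome 19, under a broad peak of 3086 bp in GFP- and 3135 bp in GFP+. The areas were 10929 and 8811, the ranks 99.1 and 98.6, and the places 749th and 893rd of all peaks. Both summits lay downstream of the TSS, at 959 bp in GFP- and 951 bp in GFP+. Another protein-coding transcript of Cpt1a has its annotated start 951 bp downstream of this TSS, under the same peak. Which start the signal belongs to was not tested. Cpt1b, the form of heart and skeletal muscle, had its TSS at position 89425863 of chromosome 15, with ranks of 96.8 in GFP- and 94.2 in GFP+. Its peak was 2093 bp long in GFP- with an area of 7428, and in GFP+ the largest overlapping peak was 1442 bp long with an area of 5213. By area the liver form thus ranked above the muscle form in both populations, but by area per bp it ranked below it, at 89.4 against 89.5 in GFP- and 80.7 against 91.0 in GFP+. Without replicate values the order of these genes cannot be set against any spread. Cpt2 encodes the transferase of the inner membrane that returns the acyl group to coenzyme A. Its TSS, at position 107923610 of chromosome 4, had the largest difference of the 10, with ranks of 97.1 in GFP- and 90.5 in GFP+, or -6.63 points, and with areas of 7645 and 4000 over 2282 and 900 bp.

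The acyl-CoA dehydrogenases open each round of oxidation and differ in the chain length they prefer. Acadm, for medium chains, had one of the strongest starts of the 10, with ranks of 98.9 and 99.0 and areas of 10553 in GFP- and 9461 in GFP+. Its summits, 22 bp and 32 bp upstream of the TSS at position 153944632 of chromosome 3, had -log10 p-values of 17.2 in GFP- and 15.9 in GFP+, the highest of the 10 genes in both lists. Acadl, for long chains, ranked at 96.5 and 96.4, with areas of 7157 and 6416. Its summit lay 44 bp upstream of the TSS (position 66863277 of chromosome 1) in GFP- and 362 bp downstream of it in GFP+, so that the highest point of the same peak was 406 bp apart between the lists. Acadvl, for very long chains and bound to the inner membrane, had the lowest rank of the 10 in both lists, 88.7 in GFP- and 86.8 in GFP+. Its peaks at position 70015411 of chromosome 11 were 906 and 1040 bp long, with areas of 3756 and 3149. None of these 3 starts differed by more than 2 points of rank between the populations.

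The mitochondrial trifunctional protein carries out the later steps for long chains, with the hydratase and dehydrogenase in the subunit encoded by Hadha and the thiolase in that encoded by Hadhb. The pair shared 1 peak in each list because of their head-to-head starts, at positions 30155162 (Hadha, minus strand) and 30155248 (Hadhb, plus strand) of chromosome 5. They therefore count as a single measurement, and the 10 genes had 9 distinct TSS peaks. The shared peak was 1614 bp long in GFP- and 1572 bp in GFP+, with areas of 5872 and 5223, ranks of 94.6 and 94.2, and summits 19 and 17 bp downstream of the Hadhb start. Acaa2, the thiolase for shorter chains, had the highest rank of the 10 in both lists, 99.1 and 99.2, with areas of 11281 and 10038. Its summit lay 218 bp upstream of the TSS (position 74779197 of chromosome 18) in both lists, and its peak also covered the starts of the small Cajal body RNA gene Scarna17 and of Gm23119, whose part in the signal was not tested. Ech1, an isomerase needed for unsaturated chains with double bonds at odd positions, ranked at 97.6 in GFP- and 94.8 in GFP+. Its areas were 8239 and 5525, over 2158 and 1015 bp at position 28825217 of chromosome 7. Summits of the lists were within 10 bp of each other at 7 of the 10 starts and within 50 bp at 9, with the peak of Hadha and Hadhb counted at both. For all regions in both lists with a summit within 1000 bp of a main gene start, the median distance between summits was 10 bp.

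The 3 genes with the largest differences, Cpt2, Ech1 and Cpt1b, were also the only ones of the 10 whose single GFP- peak was matched by 2 separate GFP+ peaks. Since the area of the largest peak then leaves out the rest, the areas of all peaks in each start region were also summed, a step added after the data were seen. The ratio of area, GFP+ over GFP-, was 0.523 for the largest Cpt2 peak and 0.745 for the sum. For Ech1 it went from 0.671 to 0.793 and for Cpt1b from 0.702 to 0.821. Ranked among the peaks of each list, the summed areas differed by -1.91 points for Cpt2, -1.04 for Ech1 and -0.92 for Cpt1b. The largest peaks had differed by -6.63, -2.80 and -2.69 points. After summing, the ratios of the 10 genes lay between 0.745 (Cpt2) and 0.897 (Acadm), and Cpt2 and Ech1 still had the lowest values. On the log2 scale, centred on the median ratio of all regions found in both lists, the summed values ran from -0.20 (Cpt2) to 0.07 (Acadm), with a median of 0.01. The direction at these starts also depended on the measure, since by area per bp Cpt2 and Ech1 ranked 9.27 and 7.18 points higher in GFP+, and by the -log10 p-value of the summit they differed by -0.52 and -0.44 points. Acadvl differed by -10.3 and Cpt1a by -8.75 points by area per bp, against -1.85 and -0.42 points by area.

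**Figure D2:**
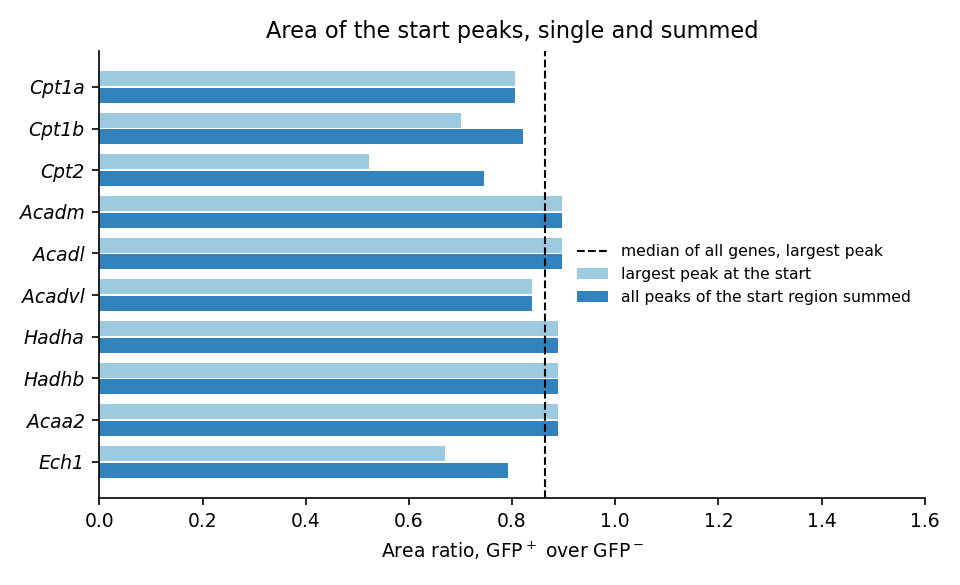
Ratio of area, GFP+ over GFP-, at each start, for the largest peak (light bars) and for all peaks of the start region summed (dark bars). The dashed line is the median ratio over all genes whose TSS had a peak in each list, and the bars differ in length only for Cpt1b, Cpt2 and Ech1, where the GFP+ list splits the region into 2 peaks.

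The 10 genes have 62 annotated transcript starts in all. Of these, 39 had a peak within 250 bp in GFP- and 41 in GFP+, and 39 had one in both. Many of these starts lie under the same TSS peak, such as 5 of the 6 at Cpt2, and are not separate results. The share over all annotated transcript starts was not computed. The 2 starts with a peak in GFP+ alone were internal starts of Cpt1b, at ranks of 11.6 and 12.6. They are annotated as a nonsense-mediated decay transcript and a retained-intron transcript. An internal start of Acadm, of a retained-intron transcript 2729 bp into the gene, lay under a peak ranked at 62.7 in GFP- and 62.6 in GFP+. An internal start of Cpt1a, 11391 bp into the gene, was within 250 bp of a peak ranked at 61.3 in GFP- and 29.6 in GFP+, which did not reach it.

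A wider list of 39 genes for fatty acid uptake, activation, transport, oxidation and their control was used to place the 10 genes in their pathway. A peak at the TSS was present in both lists for 35 of the 39, for 2 in GFP- alone and for 1 in GFP+ alone, and Acsl5 had none in either. The median rank difference was -1.19 points. Lower by more than 20 points in GFP+ were 2 genes: Slc27a6, a fatty acid transporter, went from 72.7 to no peak, and Cpt1c, the form of carnitine palmitoyltransferase 1 best known from brain, from 68.1 to no peak. Higher by more than 20 points was 1 gene, Fabp4, a fatty acid-binding protein of fat cells and capillary endothelium, with no TSS peak in GFP- and a rank of 59.9 in GFP+. The strongest starts were those of Fabp3, the binding protein of heart muscle, at 99.8 and 99.9, the transporter Slc27a1 at 99.4 and 98.8, and Etfdh, which passes electrons from the dehydrogenases to the respiratory chain, at 98.9 and 98.7. The weakest in GFP- among those with a peak in both lists were Acsl6 at 9.63 and 22.3, Eci2 at 41.8 and 31.3, and the fatty acid receptor Cd36 at 67.7 and 67.9. Among enzymes acting beside the 10, Echs1, the hydratase of short chains, ranked at 94.9 and 86.8, and Hadh, the dehydrogenase of shorter chains, at 94.4 and 92.9. Genes of oxidative phosphorylation, the pathway fed by these reactions, had peaks at 75 of 79 starts in both populations, with a median difference of -0.33 points. In the wider list, the TSS peaks of Fabp3, Etfdh and Echs1 each also held the start of another protein-coding gene, whose part in the signal was not tested.

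**Figure D3:**
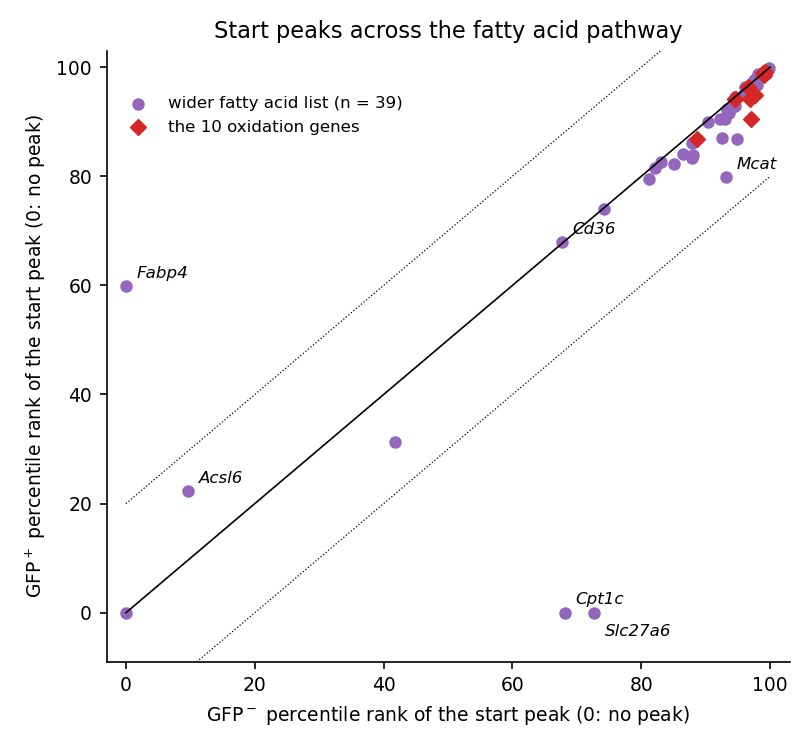
Percentile rank of the TSS peak in GFP- (horizontal axis) and GFP+ (vertical axis) for the 10 oxidation genes (diamonds) and the 39 genes of the wider list (circles), with 0 for no peak, a solid line of equality and dotted lines 20 points from it. The diamonds all lie in the upper right corner, while Slc27a6 and Cpt1c lie low on the right and Fabp4 on the left edge.

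Peaks were then counted over each gene body with 20 kb on either side. These loci held 68 GFP- and 63 GFP+ peaks, including the 9 TSS peaks of each list. Of the GFP- peaks, 55 (80.9%, Wilson 95% interval 70.0 to 88.5%) had a GFP+ peak overlapping them by 1 bp or more, against 69.7% of the whole GFP- list. Of the GFP+ peaks, 58 (92.1%, 82.7 to 96.6%) had a GFP- counterpart, against 86.6% of the whole GFP+ list. The intervals cover counting error only, and the second of them holds its whole-list share. For peaks with a summit more than 1000 bp from the main start of any protein-coding gene, the shares were 76.0% of 50 GFP- peaks (62.6 to 85.7%), against 65.7% of such peaks in the whole list, and 88.6% of 44 GFP+ peaks (76.0 to 95.1%), against 84.3%, and both intervals hold the whole-list share. At ranks of at least 50, 40 of 41 GFP- peaks were shared (86.4% in the whole list) and 37 of 37 GFP+ peaks (97.0%). Below that, 15 of 27 GFP- peaks were shared (52.9%) and 21 of 26 GFP+ peaks (76.1%). The loci had a median of 8.5 GFP- and 7.5 GFP+ peaks, which covered a median of 8.13% and 6.57% of the sequence, compared with 5.04% and 4.28% for genes with a TSS peak in either list and 24.01% and 20.3% for sarcomere genes. Coverage of the single loci ran from 5.87% at Acaa2 to 32.3% at Acadvl in GFP-. The dense loci of Acadvl and Ech1 included strong peaks at starts of neighbouring genes, such as Phf23 (99.7 and 99.6) beside Acadvl and Hnrnpl (100.0 in both lists) beside Ech1.

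**Figure D4:**
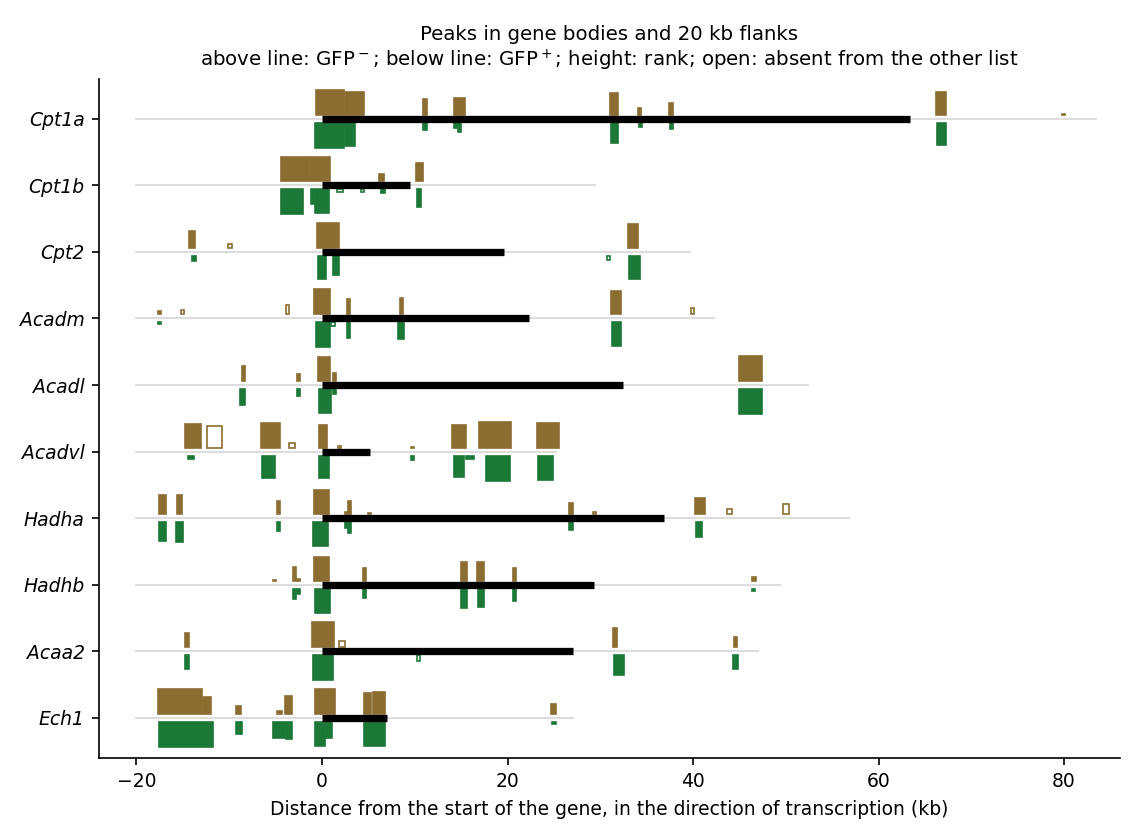
Peaks in the body (black bar) and 20 kb flanks (grey line) of each gene, by distance in kb from its start in the direction of transcription, with GFP- peaks above and GFP+ peaks below the line. The height of a box is its percentile rank and open boxes have no overlapping peak in the other list, such as the tall one 11.4 kb upstream of Acadvl.

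Joining overlapping peaks of both lists gave 71 regions, of which 53 (74.6%) were found in both lists, 13 in GFP- alone and 5 in GFP+ alone, compared with 62.3% of all regions found in both. Lower in GFP+ by more than 20 points were 11 regions (15.5%), against 23.8% of all regions of the lists, and higher were 2 regions (2.82%), against 7.63%. With summits more than 1000 bp from any main gene start, 18.9% were lower, against 26.2% of all such regions, and 3.77% higher, against 8.48%. With summits within 1000 bp, 5.56% were lower, against 8.26%, and 0% higher, against 2.25%. The summits of the 53 regions in both lists were a median of 7 bp apart, and 92.5% were within 100 bp of each other, compared with a median of 18 bp and 91.0% for all regions. Of the 71, 53 had their summit more than 1000 bp from the main start of any protein-coding gene, and 36 of these (67.9%) were found in both lists, compared with 57.9% of all such regions. By locus, every such region was found in both lists at Acadl (3) and Ech1 (6). The count was 7 of 8 at Hadhb, 6 of 7 at Cpt1a, 7 of 10 at Hadha, 3 of 5 at Acaa2, 3 of 6 at Acadvl, 2 of 4 at Cpt1b, 3 of 7 at Acadm and 1 of 3 at Cpt2, with regions shared by the loci of Hadha and Hadhb counted at both. The 6 at Ech1 include the region over the start of Hnrnpl, whose summit lies 2185 bp from that start.

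The regions that differed most lay upstream of Acadvl, inside the neighbouring gene Dlg4, which encodes a scaffold protein of synapses. The region at chr11:70028407-70030205, with its summit 14244 bp upstream of the Acadvl TSS, ranked at 93.6 in GFP- and 11.8 in GFP+. A second, at chr11:70026193-70027834 and 11382 bp upstream, ranked at 84.2 in GFP- and had no GFP+ peak. Of all peaks in the 10 loci with no counterpart in the other list, this was the largest. These regions hold 6 and 3 annotated starts of Dlg4 transcripts, and another Dlg4 region with 5 such starts, 3027 bp upstream of Acadvl, ranked at 17.2 in GFP- with no GFP+ peak. By contrast, a region in a Dlg4 intron 5498 bp upstream of Acadvl was strong in both lists, at 95.7 and 89.2. To which of the genes any of these regions belongs was not tested.

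Cpt1a had the most regions within its introns, all of them found in both lists. The nearest, 3131 bp downstream of the TSS, ranked at 91.3 in GFP- and 90.4 in GFP+, and one at 31577 bp ranked at 85.05 and 79.6. Regions at 11160 bp and 14812 bp went from 61.3 to 29.6 and from 64.4 to 38.6, and one at 37662 bp from 47.2 to 25.7, each beyond the limit of 20 points. The region at 14812 bp was split into 2 GFP+ peaks, and with their areas summed, a step added after the data were seen, it differed by -6.99 points, inside that limit. Cpt2 had a region in intergenic sequence 13876 bp upstream of its TSS that ranked at 65.2 in GFP- and 20.1 in GFP+. The 300 bases around the GFP- summits of the Cpt1a region at 11160 bp (chr19:3333344-3333643) and of the Cpt2 region (chr4:107937336-107937635) are shown on the plus strand, as the regions nearest to these starts that differed by more than 20 points.
Cpt1a intron: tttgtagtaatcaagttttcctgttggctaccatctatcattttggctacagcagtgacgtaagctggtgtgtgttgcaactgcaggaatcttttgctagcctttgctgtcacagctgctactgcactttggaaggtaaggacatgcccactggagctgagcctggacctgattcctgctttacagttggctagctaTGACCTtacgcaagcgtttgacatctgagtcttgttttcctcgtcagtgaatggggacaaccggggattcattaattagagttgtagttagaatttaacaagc
Cpt2 upstream region: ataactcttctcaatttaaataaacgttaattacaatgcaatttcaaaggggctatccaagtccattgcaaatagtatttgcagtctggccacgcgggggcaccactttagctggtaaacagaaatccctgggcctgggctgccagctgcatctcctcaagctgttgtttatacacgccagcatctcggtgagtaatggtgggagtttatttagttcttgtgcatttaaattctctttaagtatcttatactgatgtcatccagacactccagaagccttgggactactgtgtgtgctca
The capitals in the Cpt1a intron mark a hexamer of nuclear receptors, and none of the words searched for was found in the other sequence.

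At Ech1, the region at chr7:28819962-28821193, in Hnrnpl and 4720 bp upstream of Ech1, ranked at 9.98 in GFP- and 63.7 in GFP+, the largest difference in that direction in the 10 loci. It ends next to a region 3525 bp upstream of Ech1 that ranked at 68.8 and 69.5. An intergenic region 24896 bp downstream of the Ech1 start went from 40.3 to 9.09. The other differences towards GFP+ at regions in both lists were 15.3 points or less, at 8903 bp upstream of Ech1 (31.2 and 46.5), 9727 bp downstream of the Acadvl start (4.04 and 18.01), 2525 bp into Hadha (8.23 and 21.4) and 44518 bp downstream of the Acaa2 start (41.6 and 54.1). Regions in GFP+ alone were weak, the highest being one in an Acaa2 intron 10336 bp from the start, at 20.998. In GFP- alone, beside Dlg4, the highest were the start of Garem2 in the flank of Hadha at 40.2, a region 3714 bp upstream of Acadm at 38.6, one in Msh4 in the flank of Acadm at 26.5 and one in an Acaa2 intron 2279 bp from the start at 24.3.

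**Figure D5:**
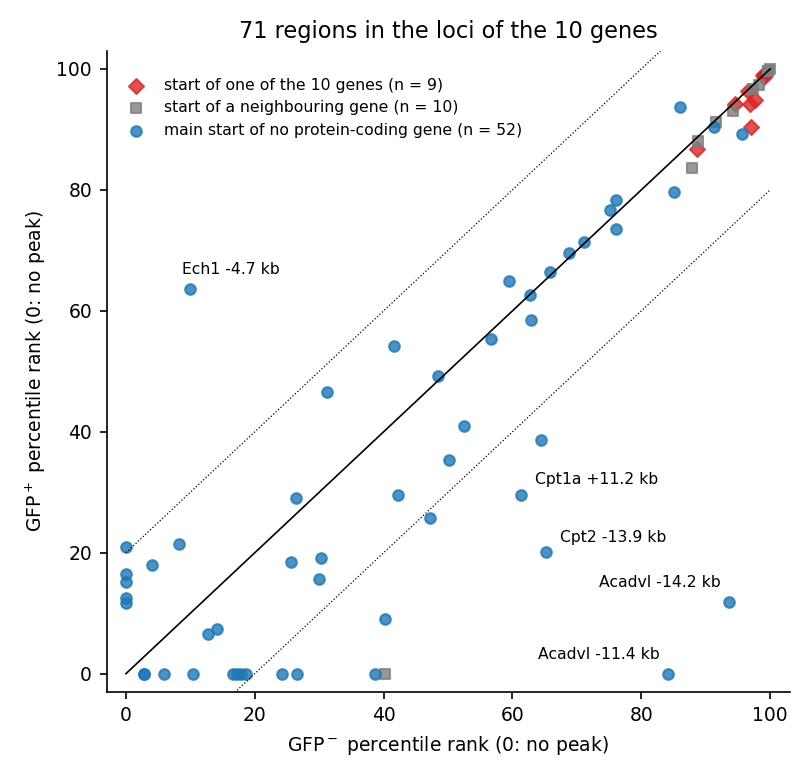
Percentile rank in GFP- (horizontal axis) and GFP+ (vertical axis) of the 71 regions in the loci of the 10 genes, with 0 for no peak, a solid line of equality and dotted lines 20 points from it. Regions at starts (diamonds and squares) cluster near the line in the upper right except for that of Garem2, and the labelled regions, named by the gene and the distance of the summit from its start, lie farther from the line than the dotted lines.

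The promoters were searched on both strands for 10 short words of binding sites, in a window from 250 bp upstream to 50 bp downstream of each TSS. Nuclear receptors of the PPAR and ERR families are known regulators of this pathway. The nuclear receptor hexamer AGGTCA was found in 4 of the 10 windows (Cpt1a, Cpt1b, Acadvl and Hadha), compared with 14.7% of 21721 promoters and 11.3% of those open in both lists. A direct repeat, 2 copies of AGGTCA spaced by 1 base with at most 2 mismatches in the 12 compared bases, was found at Cpt1b alone, compared with 3.34% of all promoters and 2.53% of open ones. It reads TGACCTTTTCCCT along the gene, starts 246 bp upstream of the TSS and contains the hexamer counted there. The extended ERR word, TCA directly before AGGTCA, was in 0 of the 10 and in 0.479% of all promoters. Cpt1b also held the MEF2 word, CTATTTTTAG at 225 bp upstream, which was in no other of the 10 and in 2.85% of all promoters, and a CCAAT word at 66 bp upstream, in 1 of the 10 and 38.9% of all. So the muscle form of the enzyme carried several words in this window that the liver form, with 1 GGGCGG word and 1 hexamer, lacked there. The Cpt1b summits lay inside this window, but those of Cpt1a lay downstream of it. The 300 bases around the GFP- summit of Cpt1a held GGGCGG, hexamer and CCAAT words, but neither the MEF2 word nor the direct repeat.

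The GGGCGG word of SP and KLF factors was in 8 of the 10 windows, all except Acadm and Acadvl, compared with 43.4% of all promoters and 64.8% of open ones. The windows of Hadha and Hadhb overlap and hold the same GGGCGG sites, so they are not separate hits. This word stood 2 times in the sequence between the Hadha and Hadhb starts. The ETS word CCGGAAGT was in 1 window, 8 bp downstream of the Cpt2 start (4.72% of all promoters), the NRF1 core GCATGCGC in 1, 169 bp upstream of Acadm (3.40%), the E-box CACGTG in Cpt1b and Acaa2 (7.81%), and the GATA word AGATAA in Acadvl (10.1%). GC content of the windows ran from 46.0% at Cpt1a to 74.3% at Acadl, with a median of 59.5%, against 55.0% for all promoters and 60.7% for open ones. Around the start of Acadvl, a 300 bp window centred on the summit held a direct repeat with 1 mismatch, TGACCACTGACCT at chr11:70015348-70015360, which lies beyond the 50 bp limit of the promoter window. In the 53 regions with a summit more than 1000 bp from any main gene start, such windows held the hexamer in 22.6%, compared with 24.2% of 74777 regions of this kind, the direct repeat in 4 (7.55%, compared with 5.07%), the MEF2 word in 4 (7.55%, compared with 6.97%) and the GATA word in 1 (1.89%, compared with 15.2%). A match to a word is a description of the sequence and not evidence that a factor binds there, and a missing word says only that its letters are not in the window.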

How the data were processed

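ATAC-Seq was measured in nuclei of 2 GFP- and 2 GFP+ heart samples. The authors used fastp for trimming, bowtie2 for alignment to mm10 and samtools and Picard for filters on quality and duplicates, brought the libraries to a common depth, and ran Genrich on both replicates at once, without mitochondrial, Y-chromosomal and blacklisted sequence. In the deposited lists, the area is the caller's signal summed over a peak, the score is limited to 1000, and the -log10 p-value is that of the summit, while the q-value column is unused. Library depths are not analysed here, and a common depth does not even out the list lengths.

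Peaks were ranked by area within their list, joined to GENCODE M21 genes and counted as shared from 1 bp of overlap. Wilson 95% intervals cover counting error only. Named regions were the largest found in 1 list and the shared ones that differed most. Members and gene lists were chosen with earlier results of these data known, and 1 gene of the wider list is not reported here. Scripts, checked on simulated data, used Python 3.11.15, numpy 2.4.6, pandas 2.3.3, scipy 1.17.1 and matplotlib 3.10.9. Sequence came from GRCm38.p6.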

Additional observations from a re-analysis of the deposited data

How the results depend on the processing

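No paired analysis was possible because each list joins both replicates of its population, and for the same reason no replicate could be left out in turn. All 10 genes kept a peak at the TSS in each list with TSS windows of 100 or 500 bp, with all annotated transcript starts and with the 50000 peaks of largest area in each list. Only the window of 100 bp could have lowered this count. The window of 500 bp and the added starts can only add peaks. The cut to 50000 peaks could not remove starts that ranked at 86.8 or above in both lists. In those 50000 peaks, the median TSS rank difference of the 10 genes was 0.31 points in place of -0.41, with a median over all genes of 0.54 in place of -0.83. This setting gives both lists the same length and the sign of the median depends on it. Without Hadha and Hadhb, which share a peak, the median over 8 genes was -1.14 points. When overlap had to cover at least 50% of both peaks, the shares of locus peaks found in the other list were 63.2% for GFP- (60.7% of the whole list) and 68.3% for GFP+ (73.7% of the whole list), so the order of locus and whole list turned for GFP+. The other alternatives left these shares inside the intervals given in the report. Over 60 values of single genes under 6 alternatives, with Hadha and Hadhb counted separately, 55 stayed within 5 points of the value given. The rank differences ran from -10.3 to 9.27 points, and none passed 20 points. The windows of 100 and 500 bp and all annotated starts returned the same peak, and so the same value, for every gene. Those values say nothing on stability. The values that moved by more than 5 points were those of Cpt1a, Cpt2, Acadvl and Ech1 by area per bp and of Cpt2 by the -log10 p-value of the summit. The cause of these changes was not tested beyond the construction of each alternative. The lists hold no peak with an area under 200, so weaker sites are not seen in either population.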
